A study of Mus musculus with 6 samples.

Results

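AP-1 is a family of transcription factors that bind DNA as pairs of basic leucine zipper (bZIP) proteins, and 10 genes of this family and its partners are described here: Fos, Fosb, Fosl1, Fosl2, Jun, Junb, Jund, Batf, Batf3 and Irf4. They were taken as every probe set of the array whose annotated gene symbol is exactly 1 of these names, which gave 15 of 45037 probe sets and covered all 10 genes, 5 with 1 probe set and 5 with 2. The samples were 3 E47 and 3 control cultures of mouse CD4 T cells activated with TGF-β1, a cytokine that induces Foxp3, the factor of regulatory T cells (Treg cells). E47 is a basic helix-loop-helix factor encoded by Tcf3 that binds E-box sites in DNA.

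E47 cells carried the retrovirus pMIT-E47-ER and control cells pMIT-bHLH-ER. The ER part is a piece of the estrogen receptor through which tamoxifen can switch on a fused protein. The labels name the control construct only as bHLH-ER and do not describe it further. Both groups began as MACS-isolated CD4+CD25- cells of C57BL/6 lymph nodes. They were stimulated with plate-bound anti-CD3 (2 µg/ml) and anti-CD28 (1 µg/ml) together with 200 U/ml IL-2 and 5 ng/ml TGF-β1 for 2 days, and received virus on day 1. Sorted CD4+Thy1.1+ cells of both groups were then stimulated again for 6 hours with the same antibodies, IL-2 and 1 µM tamoxifen, so no sample was without T cell receptor stimulation or without tamoxifen. Each of 3 independent experiments gave 1 E47 and 1 control sample, and the mice were 7, 8 and 9 weeks old in experiments 1, 2 and 3, with 3, 3 and 4 mice pooled per sample.

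AP-1 pairs a Fos or Batf protein with a Jun protein, and T cell receptor and costimulatory signals raise these proteins within hours. Batf and Batf3 lack the activation domains of Fos, and together with a Jun protein they join the interferon regulatory factor Irf4 on composite DNA elements. In activated T cells, Batf, Junb and Irf4 are known for their part in Th17, follicular helper and effector Treg programmes.

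The promoter windows of the 4 genes with a probe set that was lower in E47 in all 3 experiments are printed so that E-boxes, the sites E47 can bind, can be seen beside the expression values. They run from 250 bases before to 50 after the gene start in RefSeq, build GRCm38.p6, and 9 of the 10 genes had such a window. They lie at chr5:32136222-32136521 on the plus strand (Fosl2), chr8:84978699-84978998 on the minus strand (Junb), chr12:85686470-85686769 on the plus strand (Batf) and chr13:30748983-30749282 on the plus strand (Irf4). Each is written 5′ to 3′ along the gene, with E-boxes (CANNTG) in capitals, and in Fosl2 the capitals mark a pair of GAAA sites 2 bases apart, read on the opposite strand, of the kind that interferon regulatory factors bind.
Fosl2: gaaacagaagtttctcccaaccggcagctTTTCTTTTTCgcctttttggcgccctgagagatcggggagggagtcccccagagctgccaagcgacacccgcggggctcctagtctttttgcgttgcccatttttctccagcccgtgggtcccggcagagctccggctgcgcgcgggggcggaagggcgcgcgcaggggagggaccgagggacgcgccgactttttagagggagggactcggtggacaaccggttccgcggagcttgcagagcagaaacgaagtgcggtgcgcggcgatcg
Junb: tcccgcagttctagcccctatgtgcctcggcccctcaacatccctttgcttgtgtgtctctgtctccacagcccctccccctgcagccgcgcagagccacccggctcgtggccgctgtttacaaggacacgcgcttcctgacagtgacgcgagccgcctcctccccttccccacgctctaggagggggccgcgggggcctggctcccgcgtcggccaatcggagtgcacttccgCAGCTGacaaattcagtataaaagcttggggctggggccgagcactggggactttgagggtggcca
Batf: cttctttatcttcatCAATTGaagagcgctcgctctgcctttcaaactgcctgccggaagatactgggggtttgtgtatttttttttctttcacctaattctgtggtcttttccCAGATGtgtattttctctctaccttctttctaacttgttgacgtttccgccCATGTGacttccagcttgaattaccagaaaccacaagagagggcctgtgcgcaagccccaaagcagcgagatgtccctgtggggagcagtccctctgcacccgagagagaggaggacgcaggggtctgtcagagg
Irf4: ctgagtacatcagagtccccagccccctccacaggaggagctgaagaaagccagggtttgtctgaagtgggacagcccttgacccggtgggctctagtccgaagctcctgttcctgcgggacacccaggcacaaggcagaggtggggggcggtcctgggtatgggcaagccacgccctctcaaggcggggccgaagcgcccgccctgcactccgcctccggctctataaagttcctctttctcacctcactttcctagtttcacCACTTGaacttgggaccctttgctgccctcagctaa

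Searched on both strands, CANNTG was in the windows of 8 of the 9 genes. It was absent from that of Fosl2, and of 32851 promoter windows of this length 72.3% held it. Batf and Fos had 3 matches each, Fosb, Jund and Batf3 had 2, and Jun, Junb and Irf4 had 1. The match in Junb read CAGCTG. The AP-1 site TGANTCA, which 7.81% of windows held, and the cyclic AMP element TGACGTCA, in 1.79%, were in none of the 9 windows. The pair of GAAA sites 2 bases apart, in 3.44% of windows, was in that of Fosl2 alone among the 9, from -221 to -212, and overlapped no other match. A match is a run of letters and not a measured binding site, and other stretches of these genes were not searched.

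**Figure D1:**
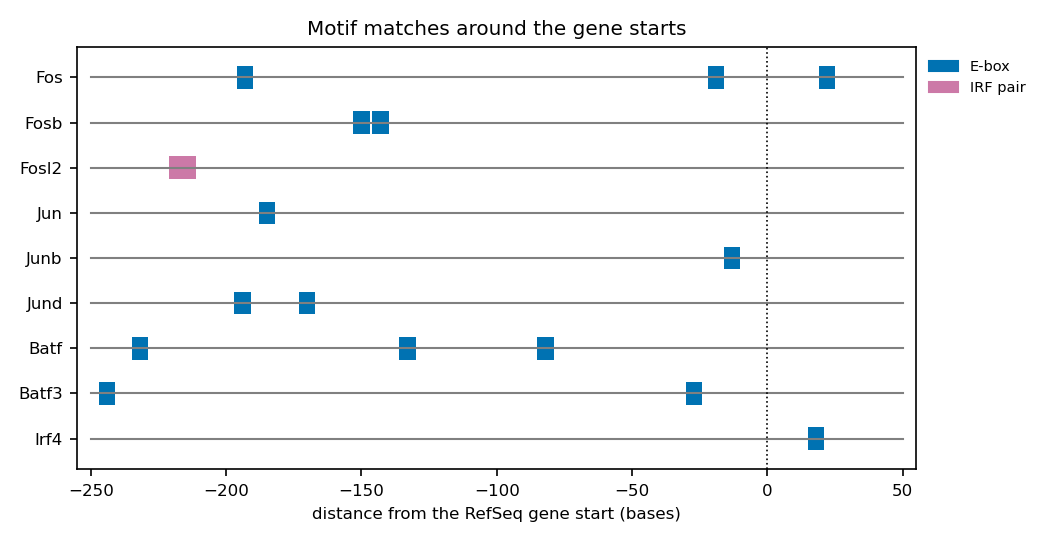
Positions of CANNTG (E-box, blue) and of paired GAAA sites (IRF pair, pink) in bases from the RefSeq gene start, for the 9 genes with a promoter window of 300 bases. Fosl2 has no E-box in this window, and Irf4 has 1 just after the start.

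The arrays were alike in overall brightness, with median intensities of 34.3 to 35.3. Tcf3, the gene of the introduced factor, had a log2 difference of -0.01 (SE 0.09) in the brightest of its 3 probe sets, and 0.28 and 0.02 in the others, and none passed the test. In the one at 0.28 every E47 array was above every control array, as for 2059 of all 45037 probe sets. Its differences in experiments 1 to 3 were 0.04, 0.19 and 0.60. Whether the 3 Tcf3 probe sets lie within the cloned part was not analysed here. At least 1 probe set of each CD4 T cell marker (Cd3e, Cd3g, Cd4, Cd28) and each Treg marker (Foxp3, Il2ra, Ikzf2, Ctla4) was above the array median on all 6 arrays. The Treg markers summed to 6714 to 7907 in E47 and 7821 to 8100 in control arrays, and all 7 of their probe sets were lower in E47, with a median difference of -0.12. The CD4 T cell markers summed to 5615 to 7311 in E47 and 4881 to 7739 in control arrays, and 3 of 6 probe sets were lower. The summed intensity of the B cell markers Ms4a1, Cd79a and Cd79b was 80.4 to 114 in E47 and 85.4 to 128 in control arrays, and 0 of the 3 was above the median throughout. That of the 7 myeloid and dendritic cell markers was 275 to 296 in E47 and 290 to 326 in control arrays, with only Csf1r above the median on all 6. Of their 9 probe sets, 8 were lower in E47, with a median difference of -0.18, and 6 had a mean level below the median of all probe sets. In all 3 experiments 4 were lower, where 17.5% of all probe sets were. For 3 every E47 array was below every control array, as for 6.65% of all. The CD8 T cell markers Cd8a and Cd8b1 summed to 373 to 583 in E47 and 285 to 430 in control arrays. Both genes had a probe set above the median on all 6 arrays. All 6 of their probe sets were higher in E47, with a median difference of 0.38. Of these, 4 were higher in all 3 experiments, where 13.5% of all probe sets were. The NK cell markers Ncr1 and Klrk1 summed to 69.7 to 85.0 in E47 and 71.5 to 80.8 in control arrays. No probe set of these marker lists passed the test, and the part of other cell types in the values below was not tested. Fewer cells of a type and less RNA per cell cannot be told apart in such cultures.

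E47 was compared with control to ask which of these genes differed between the constructs after restimulation. Levels are log2 intensities, a difference is E47 minus control, and a probe set passed when its adjusted p was under 0.05 in a limma fit over all 45037 probe sets with the experiment as a block. None of the 15 probe sets passed, where 0.271% of all probe sets did, and 0 passed without the block. Unadjusted p was under 0.05 for 4 of the 15, both of Fosl2, that of Junb and 1 of Irf4, and each of these was lower in E47; 4.74% of all probe sets were lower at that level.

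Fosl2, a Fos family member that lacks the strong activation domain of Fos and is raised by T cell stimulation, had the largest difference of the 15. Its brighter probe set, 1437247_at, had levels of 7.33, 7.22 and 7.66 in E47 replicates 1 to 3 and 8.15, 7.91 and 8.20 in control replicates 1 to 3. Every E47 array was below every control array, as for 6.65% of all probe sets. The mean difference was -0.68 (SE 0.09, 95% interval -0.91 to -0.46), an intensity 0.623 of that in control, with an adjusted p of 0.0832, and by p the probe set ranked 193 of 45037. When each of 18193 genes was represented by its brightest probe set, the same values gave Fosl2 an adjusted p of 0.0249. It was then the 1 member among the genes that fell, 0.363% of all genes. That call was lost without the block (0.218), without experiment 2 (0.170) and without experiment 3 (0.107), and was kept without experiment 1 (0.0430).

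The other Fosl2 probe set, 1422931_at, had levels of 5.84, 5.72 and 5.79 in E47 and 5.96, 6.13 and 6.35 in control replicates. The groups did not overlap here either. The difference was -0.36 (SE 0.11, 95% interval -0.63 to -0.09, adjusted p = 0.445). The 2 probe sets thus differed in the same direction in each experiment. The order of the experiments was not the same, since 1437247_at differed most in experiment 1 (-0.81) and 1422931_at least there (-0.12).

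Fos, the founding member and an immediate early gene, had levels of 8.02, 8.41 and 8.32 in E47 and 8.02, 8.30 and 8.20 in control replicates. The groups overlapped, and the difference of 0.08 (95% interval -0.13 to 0.28, adjusted p = 0.804) was higher in E47 in all 3 experiments, as were 13.5% of all probe sets. Fosb, another immediate early gene, was below the array median on every array and had levels of 3.93, 3.55 and 3.90 in E47 and 3.73, 4.17 and 4.08 in control replicates. Its difference was -0.20 (95% interval -0.60 to 0.20). Experiment 1 was higher in E47 by 0.20 and experiment 2 lower by 0.62 on the log2 scale. Detection above background was not tested.

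Fosl1, a Fos relative known as Fra-1, gave no common direction. Probe set 1417487_at had levels of 7.71, 7.25 and 7.52 in E47 and 7.59, 7.28 and 7.44 in control replicates, a difference of 0.05 (95% interval -0.16 to 0.26). Probe set 1417488_at, near the array median, had 5.17, 4.79 and 4.99 in E47 and 4.96, 5.26 and 5.27 in control replicates, a difference of -0.18 (95% interval -0.53 to 0.18). The groups overlapped in both.

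**Figure D2:**
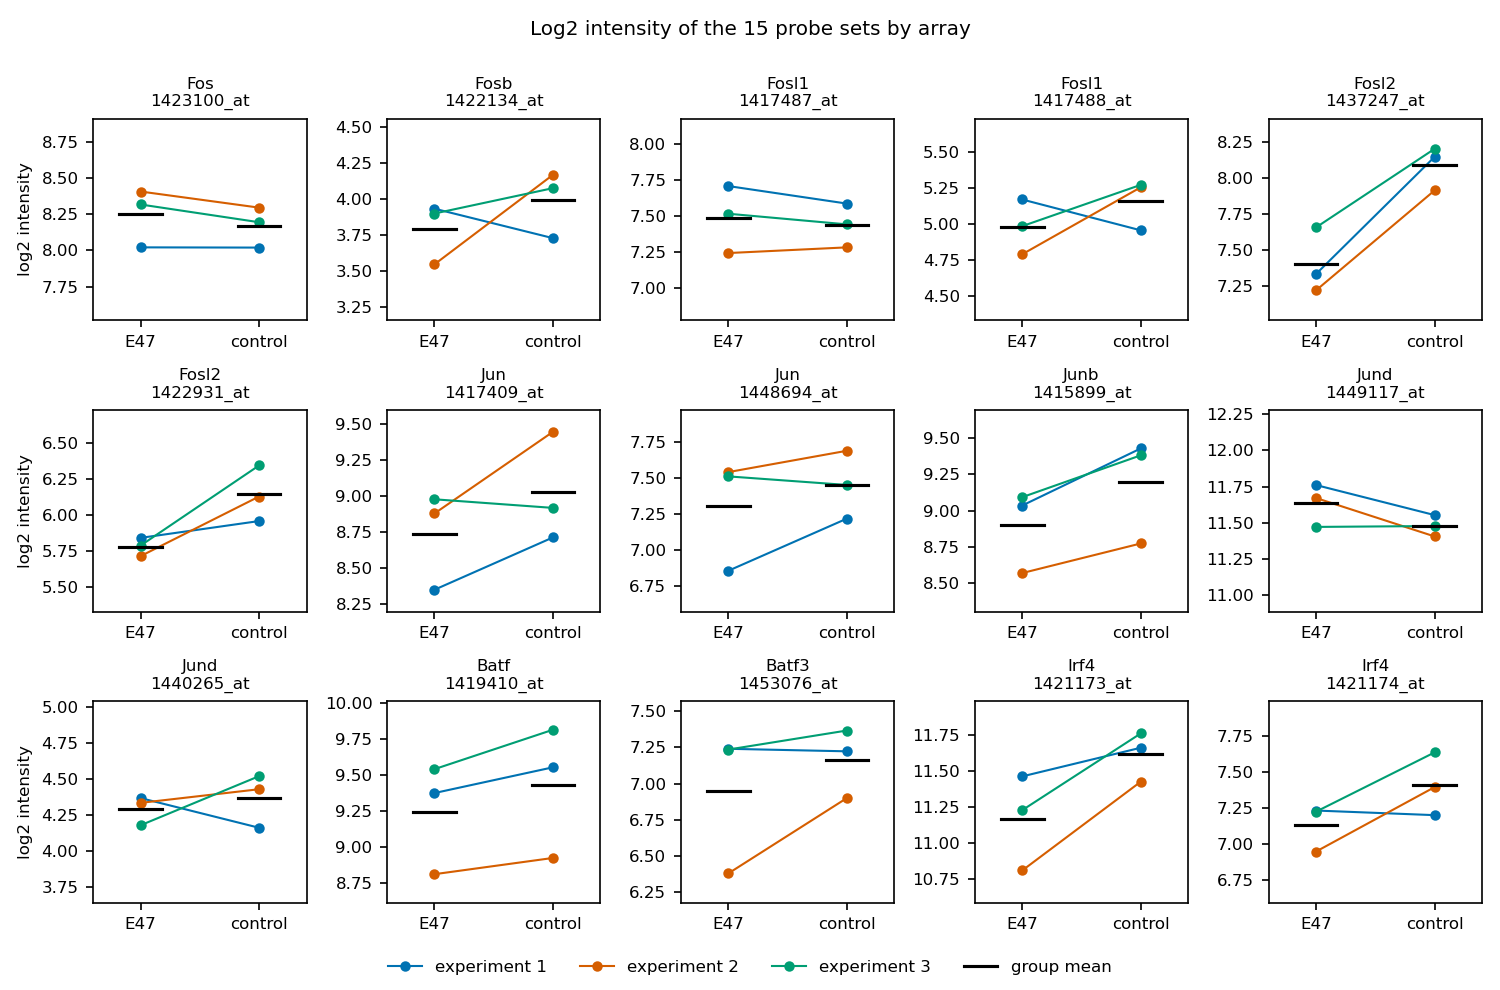
Log2 intensity of each of the 15 probe sets, with E47 on the left and control on the right of each panel. Lines join the 2 arrays of an experiment, black bars are group means (n = 3), and every panel spans the same log2 range; both Fosl2 panels show the E47 arrays below all control arrays.

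Junb, a Jun protein that pairs with Batf in Th17 and Treg cells, had levels of 9.03, 8.57 and 9.09 in E47 and 9.43, 8.77 and 9.38 in control replicates. Experiment 2 was the lowest in both groups, so the groups overlapped. Within each experiment E47 was lower, by 0.40, 0.21 and 0.29 on the log2 scale. The mean difference was -0.30 (SE 0.09, 95% interval -0.51 to -0.08), with an unadjusted p of 0.0143 and an adjusted p of 0.427.

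Jun, the founding Jun protein and a strong activator, had levels of 8.35, 8.88 and 8.97 in E47 and 8.71, 9.44 and 8.91 in control replicates at probe set 1417409_at. The difference was -0.29 (95% interval -0.62 to 0.04, adjusted p = 0.596). Its probe set 1448694_at had 6.85, 7.54 and 7.51 in E47 and 7.22, 7.69 and 7.45 in control replicates, a difference of -0.15 (95% interval -0.41 to 0.11). In both probe sets E47 was lower in experiments 1 and 2 and higher by 0.06 in experiment 3.

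Jund, the Jun protein that many resting cells express, had levels of 11.76, 11.67 and 11.47 in E47 and 11.55, 11.40 and 11.48 in control replicates at probe set 1449117_at. The difference of 0.16 (95% interval -0.07 to 0.39, adjusted p = 0.666) was the highest of the 15. Its probe set 1440265_at was below the array median on every array and had a difference of -0.08 (95% interval -0.38 to 0.23), with levels of 4.18 to 4.37 in E47 and 4.16 to 4.52 in control replicates.

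Batf, which pairs with Jun proteins and opens sites for Irf4, had levels of 9.38, 8.81 and 9.54 in E47 and 9.55, 8.93 and 9.82 in control replicates. E47 was lower in each experiment, by 0.18, 0.11 and 0.27 on the log2 scale, while the groups overlapped because experiment 2 was low in both. The mean difference was -0.19 (SE 0.08, 95% interval -0.40 to 0.02, adjusted p = 0.584). Batf3, its relative needed for cross-presenting dendritic cells, had levels of 7.24, 6.38 and 7.24 in E47 and 7.22, 6.90 and 7.37 in control replicates. Its difference was -0.21 (95% interval -0.52 to 0.09, adjusted p = 0.659), with 0.02, -0.52 and -0.13 in experiments 1 to 3.

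Irf4, which antigen receptor signals raise and which binds beside Batf and Jun proteins, had the second largest difference among the 10 genes. Probe set 1421173_at had levels of 11.46, 10.81 and 11.23 in E47 and 11.66, 11.42 and 11.76 in control replicates. E47 replicates 2 and 3 were below every control array, and E47 replicate 1 lay just above control replicate 2. The differences in experiments 1 to 3 were -0.20, -0.62 and -0.53. The mean was -0.45 (SE 0.11, 95% interval -0.72 to -0.18), an intensity 0.732 of that in control, with an unadjusted p of 0.00683 and an adjusted p of 0.337 (0.163 with 1 probe set per gene). Probe set 1421174_at had 7.24, 6.95 and 7.23 in E47 and 7.20, 7.40 and 7.64 in control replicates, a difference of -0.28 (95% interval -0.57 to 0.02, adjusted p = 0.579). There too experiments 2 and 3 carried the difference (-0.45 and -0.41), with 0.03 in experiment 1.

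**Figure D3:**
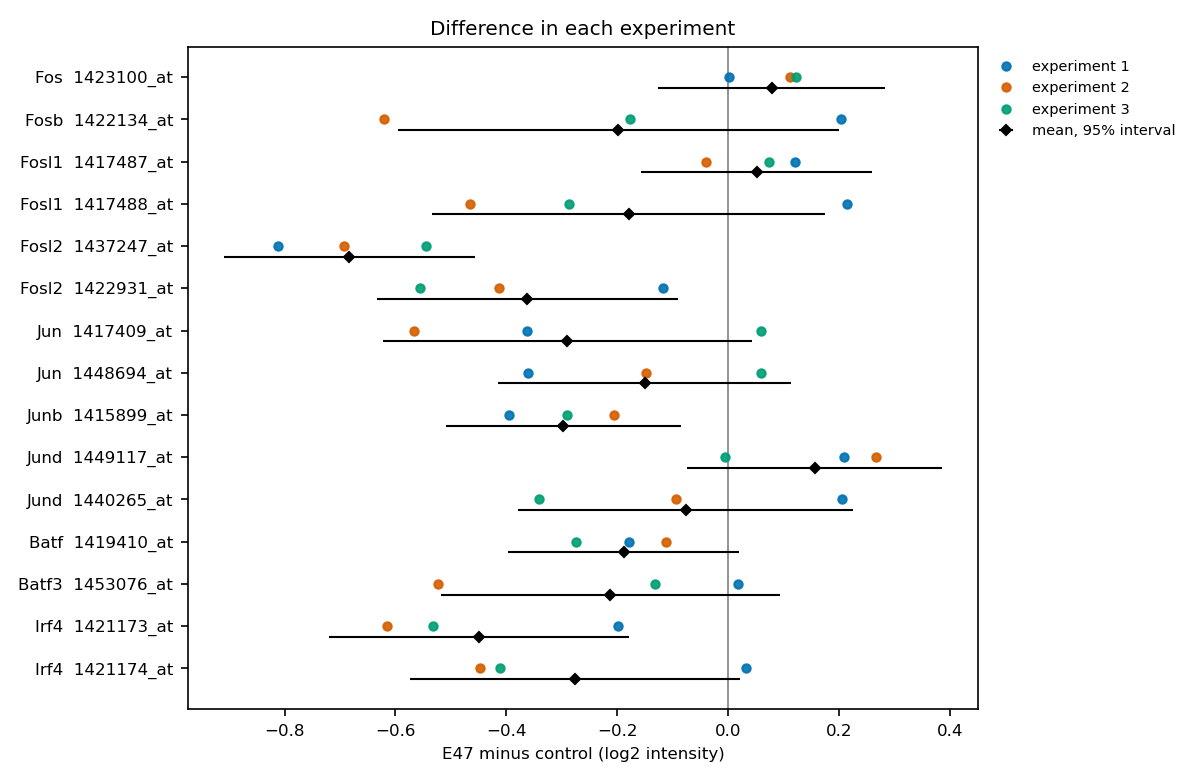
E47 minus control in log2 intensity for the 15 probe sets, with 1 coloured point per experiment and the mean with its 95% interval from the limma fit in black. The intervals of both Fosl2 probe sets, Junb and Irf4 1421173_at lie below 0, and the others include 0; the intervals are not adjusted for the number of probe sets.

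Over the 15 probe sets, 12 were lower and 3 higher in E47, and the median difference was -0.20. Over all probe sets 55.3% were lower and the median was -0.02. Both probe sets of Fosl2 and those of Junb, Batf and Irf4 (1421173_at) were lower in all 3 experiments, 5 of 15, where 17.5% of all probe sets were. Probe sets of 1 gene share their transcript, so these counts are not over independent measurements. By brightest probe set 7 of the 10 genes were lower and 3 higher, where 10501 of all 18193 genes were lower. The 10 genes were chosen with earlier results of these data known, so these shares are a description only.

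Several of the genes also varied between experiments. Batf averaged 8.87 over both arrays of experiment 2, against 9.47 in experiment 1 and 9.68 in experiment 3. Junb averaged 8.67 in experiment 2, against 9.23 and 9.24 in experiments 1 and 3. Batf3 and Irf4 (1421173_at) were also lowest in experiment 2, by 0.63 and 0.41 on the log2 scale below the mean of the other two. The other Irf4 probe set, 1421174_at, varied less, with 7.17 in experiment 2 and 7.22 and 7.43 in experiments 1 and 3.

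In Jun and Fos experiment 2 was the highest, and experiment 1 was the lowest and furthest from the others. Jun (1417409_at) was at 8.53, 9.16 and 8.94 in experiments 1 to 3, and Fos at 8.02, 8.35 and 8.26. In the F test of the block, unadjusted p was under 0.05 for 8 of the 15 probe sets and for 12.7% of all. None of the 15 passed at an adjusted p under 0.05, where 0.604% of all did, with Batf at an adjusted p of 0.0704. With 1 probe set per gene Batf (0.0214) and Junb (0.0479) passed, 2 of the 10 genes, where 3.2% of all genes did. Both calls were lost without experiment 2 and without experiment 3. Experiment, age of the mice and number of mice pooled cannot be told apart. Foxp3 averaged 1.71 higher on the log2 scale in experiment 2 than in the mean of the others. Among the 7 probe sets of the 4 Treg markers, 1 passed this F test at an adjusted p under 0.05. Unadjusted p was under 0.05 for 3 of the 7.

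**Figure D4:**
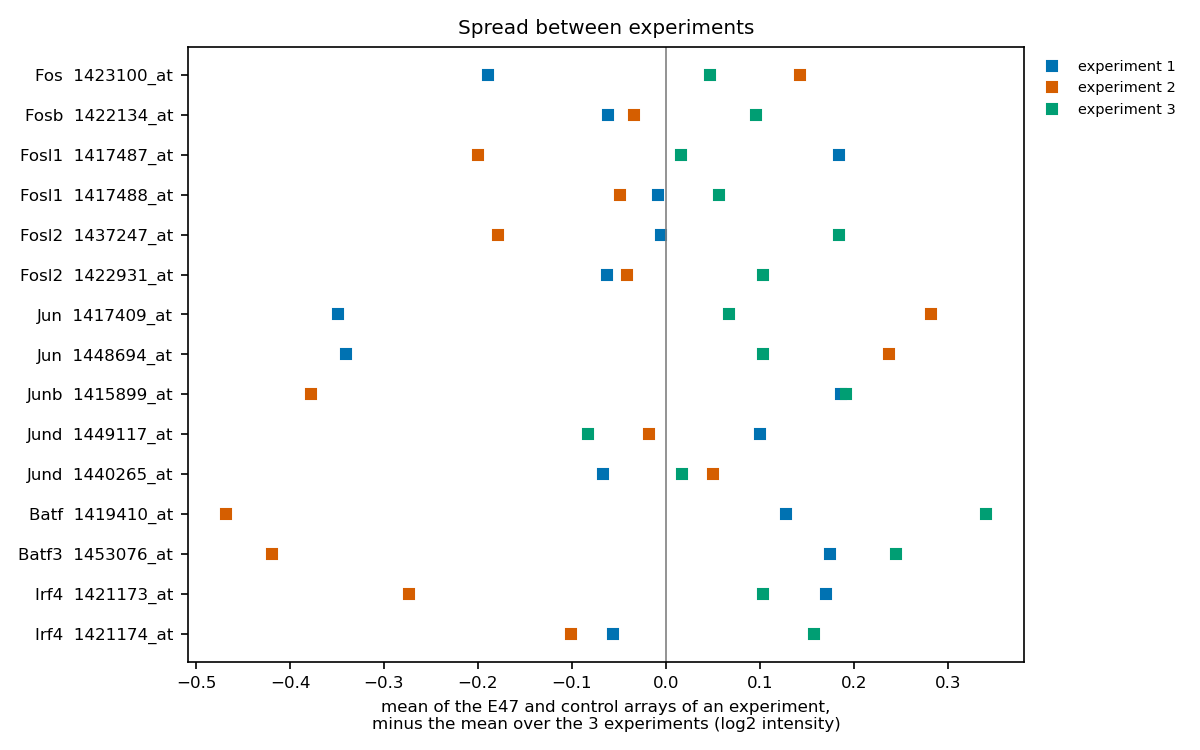
Mean log2 intensity of the 2 arrays of each experiment, minus the mean over the 3 experiments, for the 15 probe sets. Experiment 2 lies far to the left for Batf, Batf3, Junb and Irf4 1421173_at and to the right for both Jun probe sets.

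The genes whose levels followed a member most closely over the 6 arrays were found by Pearson's r among the brightest probe sets of all other genes. For Fosl2 they were Cflar, which encodes the apoptosis inhibitor FLIP (r = 0.997), Acvr1c, an activin receptor (0.995), and Flna, the actin crosslinker filamin A (0.994). Acvr1c was below the array median on every array, with levels of 4.23 to 4.36 and a difference of -0.10 (adjusted p = 0.739). Cflar had levels of 9.25, 9.18 and 9.43 in E47 and 9.77, 9.64 and 9.85 in control replicates, a difference of -0.46 (adjusted p = 0.162). For Batf they were the mechanosensitive channel gene Piezo1 (0.996), Maged1 (0.992) and Bcl2l1, which encodes the survival protein Bcl-xL (0.991). For Irf4 they were Sart3 (0.996), the signal peptidase subunit gene Sec11a (0.992) and Mlec (0.991). None of these 9 genes passed the test. They are the closest of 18193 genes over 6 arrays that share experiments and normalization, so r is a description only.

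Related genes were counted from 5 lists, which were chosen with earlier results of these data known, so their counts are a description only. Of 18 other bZIP genes with 45 probe sets, 0 passed, with a median difference of -0.05. Jdp2, a bZIP protein that dampens AP-1, averaged 6.16 ± 0.42 in E47 and 5.03 ± 0.20 in control (SD, n = 3), a difference of 1.13 (SE 0.16, adjusted p = 0.0940). Cebpb, a bZIP factor of inflammation, averaged 9.14 ± 0.07 in E47 and 8.43 ± 0.26 in control, a difference of 0.71 (SE 0.10, adjusted p = 0.102). These brighter probe sets were higher in E47 in all 3 experiments without overlap of the groups. Of all 45037 probe sets, 13.5% were higher in all 3 experiments, and 2059 had every E47 array above every control array. That of Jdp2 was above the array median on 5 of 6 arrays. With 32 added before the log its difference was 0.68 (adjusted p = 0.226). The other probe set of Jdp2 had a difference of -0.11 and that of Cebpb one of 0.43, and in both the groups overlapped. With 1 probe set per gene Jdp2 (0.0304) and Cebpb (0.0326) passed, as did 0.781% of all genes in that direction. Both of these calls were lost without the block (0.174 for Jdp2 and 0.189 for Cebpb), without experiment 2 (0.142 and 0.0645), without experiment 3 (0.214 and 0.206) and as the mean of the probe sets of a gene (0.0867 and 0.0592). That of Cebpb was also lost without experiment 1 (0.0513).

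Among 13 measured genes of the interferon regulatory factor family and its partners 1 of 25 probe sets rose, where 0.271% of all probe sets passed in either direction, and 6 of 25 were lower. It was the brightest probe set of Ikzf3, the lymphoid zinc finger factor Aiolos, with a difference of 1.09 (SE 0.10, adjusted p = 0.0227). This call was lost without the block (0.804), with the experiment as a random block (0.430) and with 32 added before the log (0.0535). It was also lost without experiment 2 (0.147) and without experiment 3 (0.246). The other probe sets of Ikzf3 had differences of 0.35 (adjusted p = 0.482) and 0.04 (adjusted p = 0.913). The one at 0.04 was below the array median on every array. As the mean of its probe sets Ikzf3 was at 0.49 (adjusted p = 0.0367). Spib, an Ets factor that can bind with Irf4 on shared elements in B cells, averaged 8.17 ± 0.36 in E47 and 5.75 ± 0.47 in control and did not pass (2.42, adjusted p = 0.0592), although it passed without the block (0.0277), with a random block (0.0155) and with 1 probe set per gene (0.0170). That last call was lost without experiment 2 (0.0808) and without experiment 3 (0.140). Stat3, which Batf and Irf4 work beside in Th17 cells, had a difference of 0.28 (adjusted p = 0.443). The median of this list was 0.08.

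In the kinases and SRF factors upstream of AP-1, 0 of 34 probe sets passed, with Map2k3 at -0.30 (adjusted p = 0.393) and Map2k6 at -0.20 (adjusted p = 0.597), both kinases of the p38 pathway. In the NFAT and calcineurin list 0 of 25 passed. Rcan1, a calcineurin inhibitor that NFAT itself induces, was at -0.28 (adjusted p = 0.431), and Nfatc2 at -0.27 (adjusted p = 0.553). As the mean of its probe sets Nfatc2 was at -0.07 (adjusted p = 0.787).

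Of 24 measured genes known as targets of AP-1, Batf or Irf4 in T cells or elsewhere, 4 of 45 probe sets rose and 0 fell, while 32 were lower and the median was -0.09. Over all probe sets 0.271% passed, 55.3% were lower and the median was -0.02. As this list too was chosen with earlier results known, these shares do not test whether targets differ from other genes. Those that rose were Plaur, the urokinase receptor (2.54, SE 0.12, adjusted p = 0.00274), the cytokine Il10 (2.38, SE 0.10, adjusted p = 0.00249), Il3, a growth factor of myeloid cells (2.00, SE 0.10, adjusted p = 0.00377), and the Th2 cytokine Il4 (1.46, SE 0.11, adjusted p = 0.0150). None passed without experiment 3 in the fit over all probe sets (adjusted p = 0.0606, 0.0606, 0.0708 and 0.234 in that order), Il4 was also lost without experiment 2 (0.131), and Il10 and Il3 without the block (0.108 and 0.428). Il3 was lost with a random block (0.147), and Il10 (0.0533) and Il4 (0.0674) with 32 added before the log. Il9 was at -0.74 (adjusted p = 0.0871) and the costimulator gene Icos at -0.51 (adjusted p = 0.125). With 1 probe set per gene both passed (0.0273 and 0.0418), where 0.363% of all genes fell. Neither passed there without the block (0.938 for Il9 and 0.652 for Icos), without experiment 2 (0.0645 and 0.255) or without experiment 3 (0.190 and 0.235), and Icos did not without experiment 1 (0.0659).

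**Figure D5:**
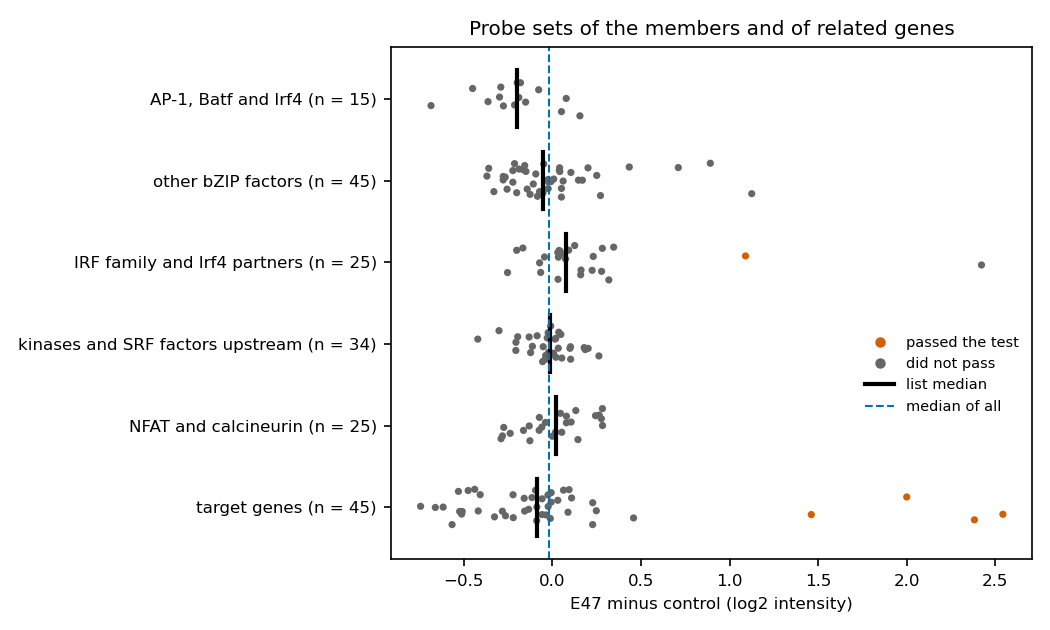
E47 minus control in log2 intensity for every probe set of the 10 genes and of the 5 related lists, with orange for those that passed at an adjusted p under 0.05, a black bar for the list median and a dashed line for the median of all probe sets. The 10 genes have none that passed and a median of -0.20, and the 5 orange points are Ikzf3, Plaur, Il10, Il3 and Il4.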

How the data were processed

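RNA was measured on 1 Affymetrix array per sample. The values deposited are linear intensities, 1 for each probe set on each array. RMA, which corrects background, normalizes arrays together and summarises probes, is named without a version in the submitters' processing notes. The log2 of each deposited intensity was used. Of 45101 probe sets, 64 Affymetrix controls were left out. Of the rest, 34945 had 1 annotated gene symbol, 932 several and 9160 none listed. Of 114 symbols in the lists and markers, 105 were measured; the others were not analysed here. Symbols of all 15 member probe sets matched RefSeq by Entrez number.

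Titles gave each sample's group and experiment number. The fit was limma 3.58.1 in R 4.3.3 (lmFit, eBayes, two-sided), with group and experiment as terms and Benjamini-Hochberg adjustment at 0.05. The design text gives the pairing, and same-numbered samples share mouse age and pool size. Deviations from group means correlated at 0.09, 0.52 and 0.31 for same-numbered arrays of experiments 1, 2 and 3, against -0.43 to 0.22 for other pairs. Alternatives were no block, a random block, 1 probe set or the mean per gene, 3 normalizations, above-median probe sets, log2 of the value plus 32, trend with robust eBayes, and leaving out each experiment. Dropping the block or an experiment with 1 probe set per gene was added after seeing the data. The fit was also run on data simulated from its own means, experiment effects and residual spread. Such data take the pairing as given, so they cannot test it on these arrays.

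The members and lists were chosen with earlier results of these data known. Named genes were all members, up to 4 passing and 2 other genes per list by lowest p, and the 3 most similar genes to Fosl2, Batf and Irf4. With 3 arrays per group, their number limits the precision.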

Additional observations from a re-analysis of the deposited data

How the results depend on the processing

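Of 182 values of the 15 member probe sets under the alternatives, leaving aside the settings added after seeing the data, 172 kept direction and side of the threshold, 6 passed where the paired fit over all probe sets gave none, and 4 changed sign. The 6 were Fosl2 1437247_at with 1 probe set per gene, the mean per gene, quantile normalization (adjusted p = 0.0485), above-median probe sets (0.0490) and trend with robust eBayes (0.00730), and Irf4 1421173_at under the last (0.0348), which called 1.27% of all probe sets. The number of member probe sets called was accordingly 1, 1, 1, 1 and 2 there. Of all genes or probe sets tested, these settings called 1.14%, 1.1%, 0.318%, 0.79% and 1.27%, against 0.271% in the paired fit over all probe sets. It was 0 without each replicate, and 0 to 1 without each replicate with 1 probe set per gene, a setting chosen after seeing the data. Sign changes were in values that passed nowhere: Fosb (-0.399 to 0.0141 without each replicate, also with 1 probe set per gene), Fosl1 1417487_at (-0.0636 as the mean per gene, -0.00173 after quantile normalization) and Jund 1440265_at (-0.218 to 0.0557 without each replicate). Without the replicate block 3 related probe sets were called, against 5 with it, where 0.115% and 0.271% of all probe sets were. That count was 10 with 1 probe set per gene or their mean, where 1.14% and 1.1% of all genes were called. It was 2 with 32 added (0.0844% of all probe sets) and 19 with trend and robust eBayes (1.27%). Without each replicate it was 0 to 8 (0.00888% to 1.22%). With 1 probe set per gene it was 3 without the block (0.247% of all genes) and 3 to 9 without each replicate (0.225% to 1.58%). Members that differed between experiments numbered 2 with 1 probe set per gene, 2 with the mean per gene and 1 with above-median probe sets. They numbered 2 with trend and robust eBayes, 0 to 1 without each replicate, and 0 to 3 without each replicate with 1 probe set per gene. Over all genes 3.2% differed with 1 probe set per gene, and over all probe sets 0.604% did in the paired fit. This share was not counted for the other settings, so their counts are a description only. Fewer features tested, or fewer arrays, is part of how some of these were built; otherwise the cause was not tested. Counts over all probe sets were 122 with the block, 52 without it, 551 without replicate 1, 34 without replicate 2 and 4 without replicate 3. Without replicate 3 no related probe set was called in the fit over all probe sets, and 3 were with 1 probe set per gene.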
